A study of Mus musculus with 23 samples.

Results

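A group of 10 genes that mark inhibitory interneurons of the cerebral cortex was followed through cortex libraries of wild-type mice and of mice with a substitution in the histone variant gene H3f3a. They were Gad1, Gad2, Lamp5, Sst, Npy, Vip, Cck, Pvalb, Htr3a and Reln, taken by symbol as 10 of the 39017 genes of the count table, and all 10 passed the filter on low counts in every comparison. The study sequenced RNA of pulverised cortex, depleted of ribosomal RNA, from 22 animals in 23 libraries. At 10 weeks there were 6 wild-type (WT) animals, labelled Hf3fa+/+, and 3 G34R, 3 G34V and 2 G34W animals, each with 1 substituted copy (Hf3fa+/G34R, for example). In these, glycine 34 of the histone was replaced by arginine, valine or tryptophan. The day-7 groups, taken on postnatal day 7, held 4 WT animals and 4 with G34R (H3f3a G34R/+). All 10-week animals were labelled male except 1 of the 2 G34W animals, and each day-7 group held 2 males and 2 females. The G34W animal labelled female (replicate 2) has a title that begins with M, the letter that begins the titles of all animals labelled male. Its sex label was followed, and the fits with sex as a covariate at 10 weeks rest on it. As this was the only 10-week animal labelled female, those fits in effect leave it out. They are therefore no separate check beside the fits without this animal. The labels name no transgene, Cre driver or treatment, and they give the genotype of the animal and the whole cortex as the tissue.

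Cortical interneurons release GABA, which the enzymes encoded by Gad1 and Gad2 make from glutamate. They fall into subclasses that are recognised by a calcium-binding protein (Pvalb), by neuropeptides (Sst, Vip, Npy, Cck), by the membrane protein encoded by Lamp5, by the secreted glycoprotein reelin (Reln) or by the serotonin-gated channel subunit encoded by Htr3a. Several of these genes are also used elsewhere: Cck and Lamp5 in excitatory neurons, Reln in the Cajal-Retzius cells that line the young cortex, and Gad1 and Gad2 in projection neurons of the neighbouring striatum. The tissue label was read against 10 general genes of excitatory neurons, which were detected in every group and summed to 2475 to 2867 CPM at 10 weeks and 1385 to 1758 CPM at day 7. Levels are CPM (counts scaled to library size, per M counts) on a scale set by the trimmed mean of M-values (TMM). In whole tissue, fewer cells of a type and less RNA per cell cannot be told apart.

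The series names DNMT3A recruitment as its subject, and this enzyme methylates cytosine in CG dinucleotides and, in neurons, also outside them. The stretch from 250 bases before to 50 bases after the start was therefore read for the markers in the RefSeq promoter table of GRCm38.p6, which held 9 of the 10 genes. The windows of 4 genes are shown because the results turn on them: Lamp5 was lower in each 10-week mutant group, Npy was lower in G34W, and Pvalb and Sst had the highest and the lowest rise with age. They lie at chr2:136052089-136052388 on the plus strand (Lamp5), chr6:49822460-49822759 on the plus strand (Npy), chr16:23890795-23891094 on the minus strand (Sst) and chr15:78206351-78206650 on the minus strand (Pvalb). Capitals mark each CG.
Lamp5: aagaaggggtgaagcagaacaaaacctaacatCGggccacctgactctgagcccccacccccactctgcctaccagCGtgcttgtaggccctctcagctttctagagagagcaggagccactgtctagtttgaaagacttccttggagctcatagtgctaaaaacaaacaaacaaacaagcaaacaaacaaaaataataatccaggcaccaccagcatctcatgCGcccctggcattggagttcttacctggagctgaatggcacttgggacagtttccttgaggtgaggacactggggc
Npy: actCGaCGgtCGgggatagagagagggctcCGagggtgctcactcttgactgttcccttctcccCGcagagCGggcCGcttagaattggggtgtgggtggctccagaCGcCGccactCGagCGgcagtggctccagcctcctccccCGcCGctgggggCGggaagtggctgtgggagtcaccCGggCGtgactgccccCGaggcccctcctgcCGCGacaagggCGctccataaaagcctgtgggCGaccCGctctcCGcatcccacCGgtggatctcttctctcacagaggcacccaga
Sst: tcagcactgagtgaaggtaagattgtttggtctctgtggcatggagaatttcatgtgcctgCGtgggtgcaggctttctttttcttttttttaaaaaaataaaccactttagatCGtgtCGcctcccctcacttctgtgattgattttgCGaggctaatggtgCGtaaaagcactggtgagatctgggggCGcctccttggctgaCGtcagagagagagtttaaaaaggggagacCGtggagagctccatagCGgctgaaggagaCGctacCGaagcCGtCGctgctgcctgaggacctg
Pvalb: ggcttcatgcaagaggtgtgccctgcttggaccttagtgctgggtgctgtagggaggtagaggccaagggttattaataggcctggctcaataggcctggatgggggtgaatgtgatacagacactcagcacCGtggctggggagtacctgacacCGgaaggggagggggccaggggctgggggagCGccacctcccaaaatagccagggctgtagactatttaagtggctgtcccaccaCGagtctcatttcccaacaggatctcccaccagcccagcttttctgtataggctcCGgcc
The Lamp5 window holds 3 CG dinucleotides, and 76.69% of the 32851 mouse windows of this length hold as many or more. Npy has 24 (19.98% hold as many or more), Sst has 13 (37.91%) and Pvalb has 5 (61.96%). The median of all windows is 7. A second listed start has 2 CG for Lamp5 and 25 for Pvalb. Over the 9 genes, the first listed start ranged from 3 CG in Lamp5 to 47 in Reln, with 4 for Vip, 10 for Cck, 14 for Gad2 and 21 for Gad1. The cAMP response element TGACGTCA, which reads the same on both strands and overlaps 1 of the CG counted, was found in the Sst window and in 1.79% of all windows. The counts describe these letters only, since methylation was not measured in these libraries.

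In WT cortex the markers spanned a wide range of levels, compared here per kilobase of the longest protein-coding transcript (CPM per kb). At 10 weeks (n = 6) Cck was highest at 231 ± 25.1 CPM per kb (mean ± SD), followed by Sst at 123 ± 7.02, Gad1 at 90.2 ± 3.25 and Npy at 76.2 ± 7.7. Lamp5 stood at 56.8 ± 5.83 CPM per kb, Pvalb at 40.6 ± 5.4, Gad2 at 22.9 ± 3.03, Vip at 19.9 ± 2.89, Reln at 13.2 ± 2.24 and Htr3a at 2.59 ± 0.381. Neighbours in this order whose animals overlapped were Gad1 and Npy, Lamp5 and Pvalb, Gad2 and Vip, and Vip and Reln. With the length of all exons joined, Gad1 fell below Npy (39.6 against 76.2 CPM per kb) and came close to Pvalb (38.1) and Lamp5 (37.9), so the middle of the order depends on the transcript used. The 10 genes lie on chromosomes 2 (Gad1, Gad2, Lamp5), 5 (Reln), 6 (Npy), 9 (Cck, Htr3a), 10 (Vip), 15 (Pvalb) and 16 (Sst).

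At day 7 the order was different. Cck at 86.3 ± 7.31 and Sst at 83.4 ± 12.4 CPM per kb (n = 4) led with overlapping animals. Npy followed at 40.9 ± 4.0 and Reln at 38.2 ± 1.66, also overlapping. Gad1 stood at 23.3 ± 4.51, Gad2 at 10.1 ± 2.34, Vip at 6.99 ± 1.16, Lamp5 at 4.53 ± 0.569, Htr3a at 1.25 ± 0.172 and Pvalb at 0.35 ± 0.415. Pvalb was near the detection limit, with 0, 4, 20 and 44 counts in the 4 WT animals.

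Between day 7 and 10 weeks, 9 of the 10 markers rose in WT and Reln fell, each called by edgeR (quasi-likelihood F test, adjusted p under 0.05 by Benjamini-Hochberg over all genes). In the same comparison 67.7% of the 22417 genes tested were called, 33.3% higher and 34.4% lower, and the median log2 fold change was -0.01 over all genes and 1.30 over the markers. The ranges of the 2 ages did not overlap for any of the 10, which held for 54.6% of all genes (26.6% higher and 28% lower at 10 weeks). Pvalb rose most, by 6.72 on the log2 scale (SE 0.341, adjusted p = 3.67e-12), from 0.342 ± 0.405 to 39.7 ± 5.27 CPM, a fold that rests on very low counts at day 7. Lamp5 rose by 3.65 (SE 0.114, adjusted p = 2.52e-17), from 8.86 ± 1.11 CPM at day 7 (n = 4) to 111 ± 11.4 CPM at 10 weeks (n = 6). The enzymes of GABA synthesis rose less, Gad1 by 1.95 (SE 0.135) and Gad2 by 1.19 (SE 0.205). Among the peptides the rise was 1.5 for Vip, 1.42 for Cck, 0.90 for Npy and 0.56 for Sst, and Htr3a rose by 1.05. Reln, which Cajal-Retzius cells secrete in the young cortex, fell by 1.54 (SE 0.101), from 447 ± 19.4 to 154 ± 26.2 CPM. The 10-week WT animals were all male and those at day 7 were not. With males only, all 10 markers were still called. The 2 ages were deposited at different times. Age and any batch of the deposit can therefore not be told apart, here and in the wider lists that follow.

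**Figure D1:**
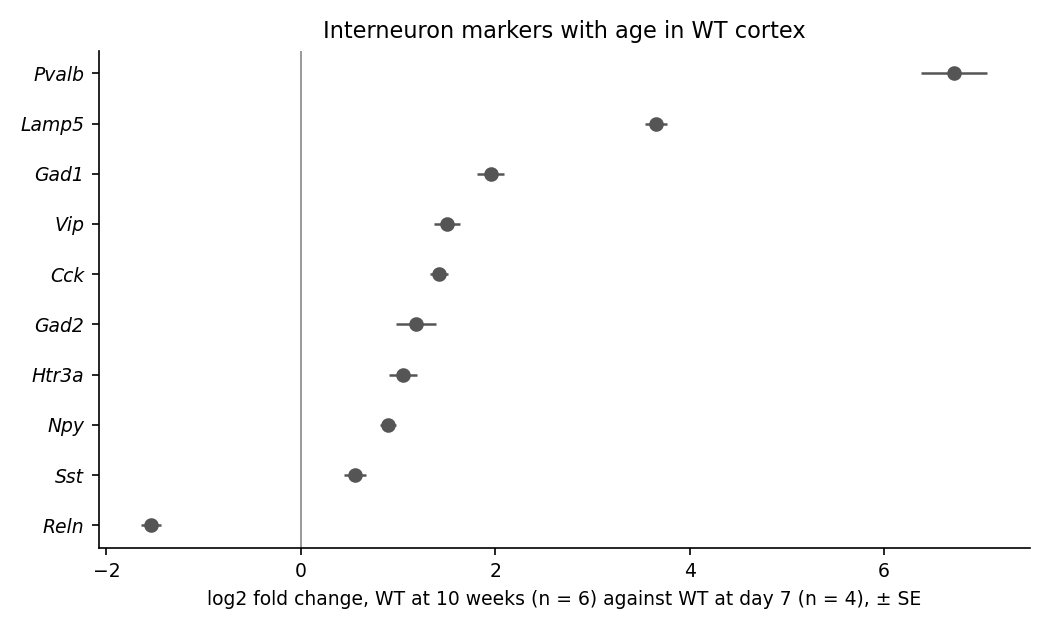
Change of the 10 markers with age in WT cortex: log2 fold change of 10 weeks (n = 6) against day 7 (n = 4), with bars of 1 SE from edgeR. Pvalb (6.72) and Lamp5 (3.65) stand furthest to the right, and Reln (-1.54) alone lies below 0.

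The wider lists of the same cells moved in several directions with age. Of 20 transcription factors of the interneuron lineage 1 was higher and 14 were lower (median -0.88), among them Lhx6, which directs interneurons of the medial ganglionic eminence (-1.47, SE 0.0785), and Dlx1 (-0.89, SE 0.0748). Of 14 genes of the parvalbumin subclass 11 were higher and 2 lower, with the synaptic vesicle gene Syt2 at 2.90 (SE 0.171) and the fast potassium channel gene Kcnc1 at 1.33 (SE 0.0971). Among 12 perineuronal net genes 2 were higher and 8 lower, and the link protein gene Hapln4, at 5.88 (SE 0.205), was among the higher ones. Of 9 genes of reelin signalling 0 were higher and 5 lower, including the receptor genes Lrp8 (-1.71, SE 0.0557) and Vldlr (-0.57, SE 0.0634) and the adaptor gene Dab1 (-0.40, SE 0.0566). Reelin and both receptor genes were lower at 10 weeks in these libraries.

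**Figure D2:**
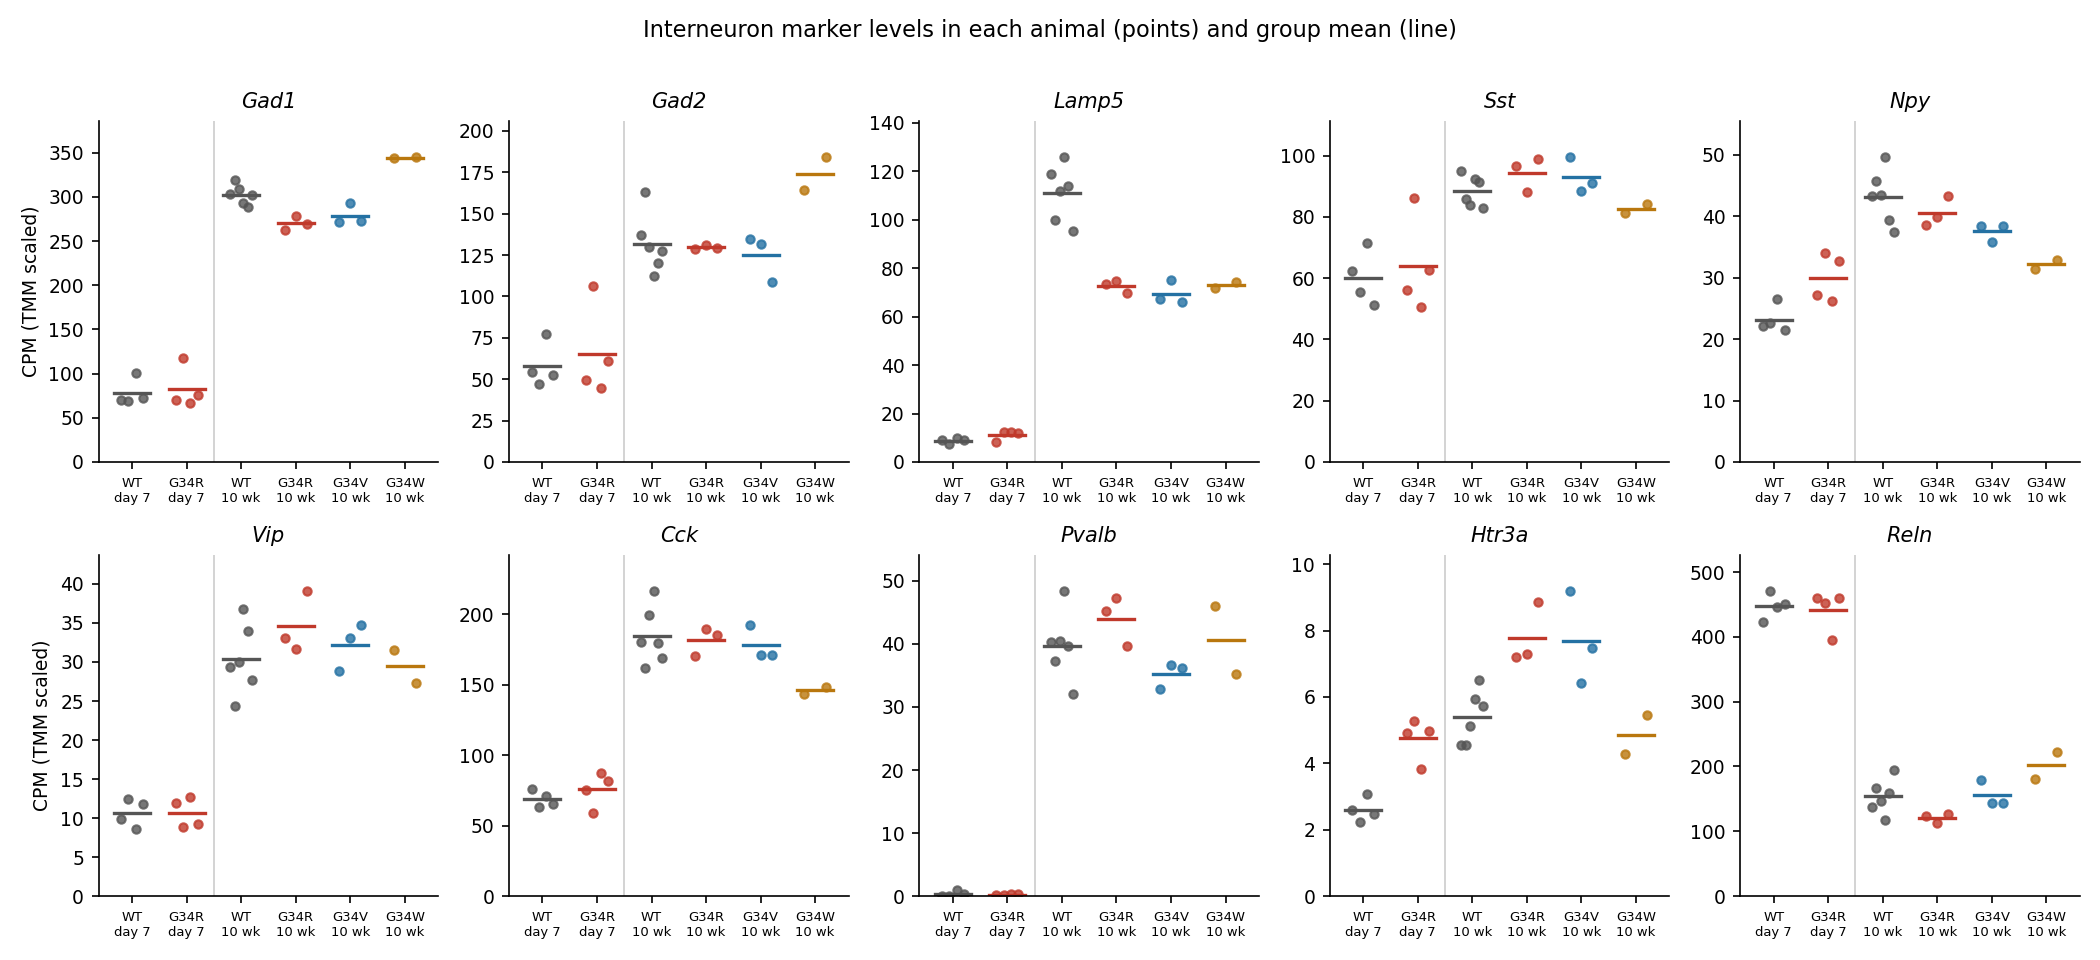
Level of each marker in every animal (points, CPM on 1 TMM scale, linear axis from 0) and the group mean (line), with WT and G34R at day 7 on the left of each panel and WT, G34R, G34V and G34W at 10 weeks on the right. For Lamp5 the 8 mutant animals at 10 weeks sit between 66.1 and 75.0 CPM, below all 6 WT animals, and for Htr3a the 4 G34R animals at day 7 sit above all 4 WT animals.

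H3f3a itself, the gene that carries the substitution, was at 45.2 ± 3.82 CPM in WT at 10 weeks (n = 6) and at 43.1 ± 2.04 (G34R, n = 3), 41.5 ± 1.89 (G34V, n = 3) and 42.1 ± 5.22 (G34W, n = 2) in the mutants, none past the test. At day 7 it was at 72.6 ± 3.05 in WT and 60.8 ± 1.77 CPM in G34R (n = 4 each; -0.25, SE 0.0416, edgeR adjusted p = 0.0428), a call lost under 9 of 16 alternatives, with adjusted p up to 0.255. Gene counts do not show the substituted codon, so they are no check of the genotype labels. Libraries held 32.3 M to 90.1 M counts at 10 weeks and 28.4 M to 53.5 M at day 7. At 10 weeks they fell into a set with 0.885 to 1.028% mitochondrial protein-coding counts, with all G34R and part of the WT libraries, and a set with 1.116 to 1.356%, with all G34V and G34W and the other WT libraries. WT replicate 3 had 1 library in each set, so the sets are not a difference between animals alone. The labels give no batch. Animals of different mutant genotypes never shared a run of adjacent label numbers, while each run also held WT. Direct differences between mutant groups can therefore not be told apart from differences between runs. The 3 comparisons with WT at 10 weeks share the same 6 WT animals and are not independent of each other.

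Lamp5, whose product is a lysosome-associated membrane protein of the synaptic compartment in interneurons, was lower in all 3 mutant groups at 10 weeks. In WT the animals ranged from 95.6 to 126 CPM with a median of 113. The G34R animals had 73.7, 74.7 and 69.7 CPM, the G34V animals 67.3, 75.0 and 66.1 CPM, and the G34W animals 71.7 and 74.2 CPM. No mutant animal reached the lowest WT animal, and the 3 mutant groups overlapped each other. Against WT the log2 fold change was -0.61 in G34R (SE 0.0775, edgeR adjusted p = 6.01e-05), -0.68 in G34V (SE 0.0778, adjusted p = 3.8e-05) and -0.61 in G34W (SE 0.0909, adjusted p = 0.00288). By p it ranked 133rd, 56th and 25th of the 21274 genes tested. Between the mutants Lamp5 did not pass the test: G34R minus G34V was 0.06 (SE 0.0876), G34R minus G34W -0.01 (SE 0.0982) and G34V minus G34W -0.07 (SE 0.0982).

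The lower Lamp5 level held within the library sets. Among the libraries with the low mitochondrial share the difference of G34R from WT was -0.71 (SE 0.0532, edgeR adjusted p = 7.94e-05). Among those with the high share it was -0.60 for G34V (SE 0.0725, adjusted p = 0.000637) and -0.53 for G34W (SE 0.0833, adjusted p = 0.0187). With animals of adjacent label numbers taken as a block (number runs), G34R gave -0.76 and G34V -0.61, both called, and G34W gave -0.52 with an adjusted p of 0.0552, which missed the threshold.

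At day 7 Lamp5 was low in every animal and not lower in G34R. The WT animals had 9.02, 7.32, 9.98 and 9.11 CPM and the G34R animals 8.20, 12.4, 12.3 and 11.8 CPM. Of the 4 G34R animals 3 lay above all WT animals and 1 lay among them, and the difference of 0.35 (SE 0.127) did not pass (edgeR adjusted p = 0.517). The effect of G34R therefore differed between the ages: the 10-week difference minus the day-7 difference was -0.96 (SE 0.155, edgeR adjusted p = 0.00206). Of the 10 markers Lamp5 alone was called in that test and was lower, where 1.16% of all genes were called (0.562% higher, 0.602% lower), and it was called under all 27 alternatives (-1.08 to -0.87). In both genotypes the level was higher at 10 weeks than at day 7 in every animal.

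Lamp5 is one of 14 genes listed for the Lamp5, neurogliaform and Sncg subclasses, which sit mainly in the superficial cortex. Its summed level was 788 to 846 CPM in WT at 10 weeks, 696 to 726 in G34R, 730 to 777 in G34V and 761 and 891 in G34W, so every G34R and G34V animal lay below all WT animals. Without Lamp5 the other 13 genes summed to 662 to 751 CPM in WT, 621 to 657 in G34R, still below WT, and 655 to 710 in G34V, which overlapped WT. These sums weight the most abundant genes and were not tested. At day 7 the full list summed to 955 to 1013 CPM in WT and 935 to 1017 in G34R. In G34R 1 was higher and 2 were lower (median -0.09, against -0.004 over all genes), in G34V 1 was higher and 1 lower (median -0.09, against 0.008), in G34W 0 were higher and 2 lower (median 0.04, against 0.009). Over all genes 5.61%, 4.25% and 1.61% were called in these comparisons. The lower genes include Lamp5 itself in each group and Npy in G34W. At day 7 none of the 14 was called. The keratin gene Krt73 was lower in G34R at 10 weeks, at 0.919 ± 0.0614 CPM (n = 3), than in WT, at 1.94 ± 0.191 CPM (n = 6), with -1.07 on the log2 scale (SE 0.186) and an edgeR adjusted p of 0.00144. At day 7 it was at 1.02 ± 0.166 CPM in G34R and 0.512 ± 0.165 in WT, and its difference between the ages was -2.08 (SE 0.297, adjusted p = 0.000394). Krt73 and Lamp5 were the 2 genes of the list past that test. The higher gene was Lsp1, which leukocytes also express, at 1.21 in G34R (SE 0.139) and 1.24 in G34V (SE 0.139). It stood at 3.21 ± 0.473 CPM in WT, 7.53 ± 1.15 in G34R and 7.62 ± 0.63 in G34V. Ndnf, a marker of layer 1 neurogliaform cells, had 0.18, 0.19 and 0.25 in G34R, G34V and G34W, Kit had -0.09, -0.03 and -0.14, and none of these passed.

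**Figure D3:**
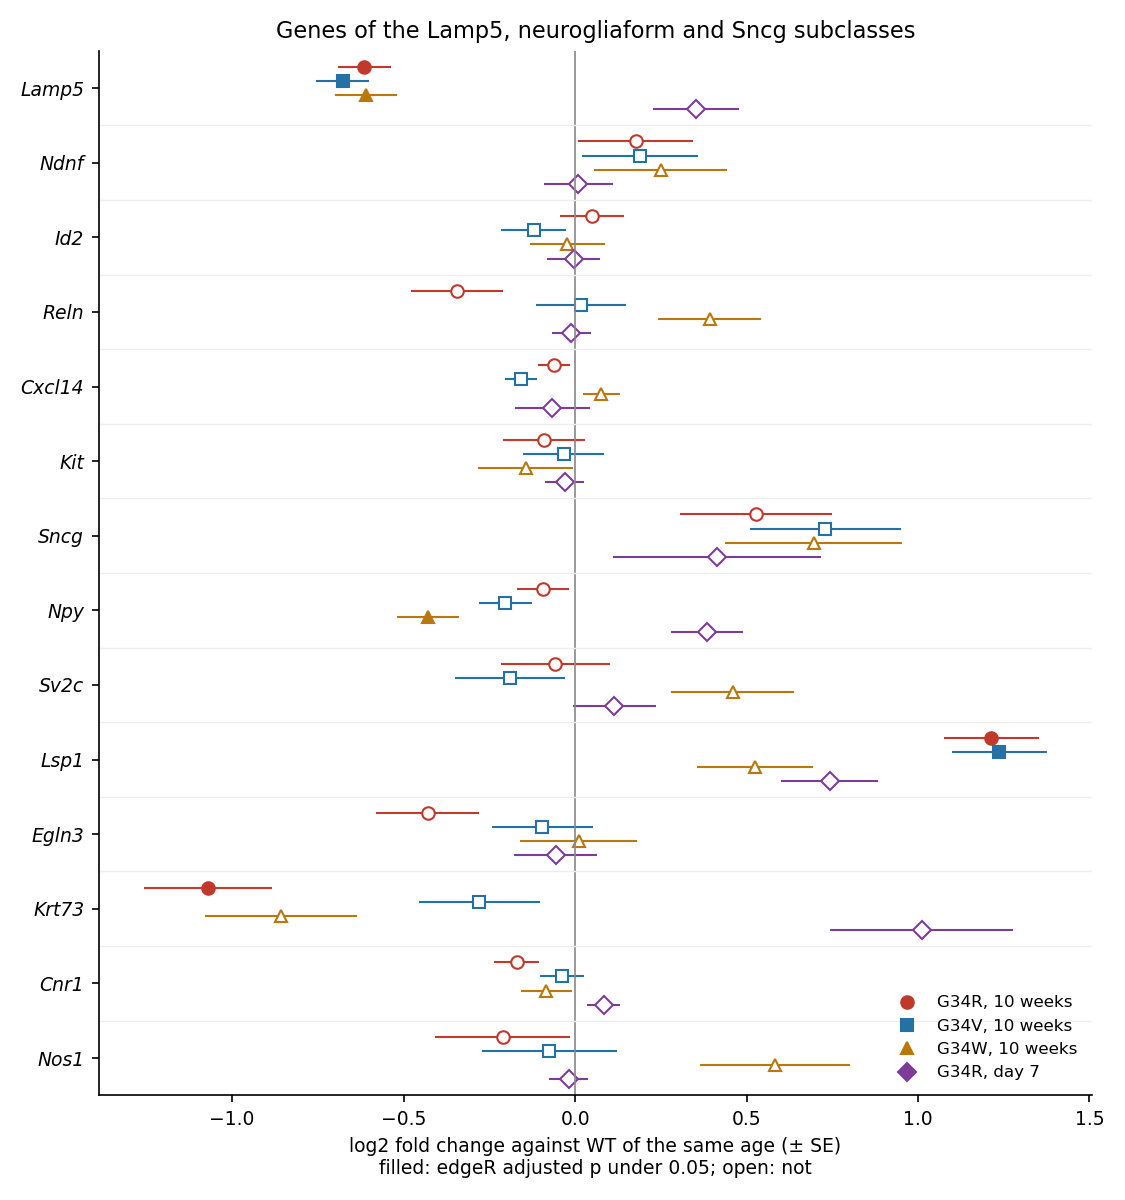
Log2 fold change against WT of the same age for the 14 genes of the Lamp5, neurogliaform and Sncg subclasses, with bars of 1 SE, in G34R, G34V and G34W at 10 weeks and G34R at day 7; filled symbols are called by edgeR. Lamp5 is filled at -0.61, -0.68 and -0.61, Lsp1 is filled at 1.21 and 1.24, and most other genes scatter around 0.

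Lists of other cells that express Lamp5 or that differed between the groups were read beside it. Of 12 genes of upper-layer excitatory neurons 2 were higher and 0 lower in each mutant group, with the transcription factor gene Pou3f2 at 0.41 in G34R and 0.44 in G34V and Rorb at 0.34 in G34V and 0.39 in G34W. Rorb in G34W was lost under 13 of 21 alternatives (edgeR adjusted p up to 0.309), and it was 0.20 without G34W replicate 2 and 0.55 without replicate 1. Rorb in G34V was lost under 5 of 22, Pou3f2 in G34R under 4 of 22 and in G34V under 2 of 22. Of 12 genes of deep-layer excitatory neurons 0 were higher and 2 lower in G34R, Fezf2 (-0.58, SE 0.124) and Crym (-0.31, SE 0.0886), and 0 were called in G34V and G34W. The call for Crym was lost under 15 of 22 alternatives and that for Fezf2 under 1 of 22. The summed level of these 12 genes was 430 to 495 CPM in WT, 371 to 403 in G34R, 407 to 432 in G34V and 432 and 459 in G34W, so the G34R animals lay below all WT animals. Of 10 astrocyte genes 1 was higher in each mutant group and 0 were lower, and their summed level was 3537 to 4220 CPM in WT, 3820 to 3827 in G34R, 3764 to 3771 in G34V and 4019 and 4841 in G34W. The higher gene was Gfap, which encodes the intermediate filament protein of astrocytes. Gfap was at 112 to 143 CPM in WT at 10 weeks, 431 to 462 in G34R, at 228 ± 19.6 (SD, n = 3) and no lower than 214 in G34V and at 174 and 189 in G34W, each mutant group above all WT animals. Its log2 fold changes were 1.82, 0.84 and 0.51 in G34R, G34V and G34W, with edgeR adjusted p of 7.41e-11, 2.15e-06 and 0.00690, the last lost under 1 of 21 alternatives. At day 7 Gfap was not called (-0.13, SE 0.154), and its difference between the ages was 1.99 (SE 0.179, edgeR adjusted p = 6.93e-06), called under all 27 alternatives (1.81 to 2.13). Gfap was thus called, higher, in the same 3 comparisons of mutants with WT at 10 weeks in which Lamp5 was called lower, and both passed the test of whether G34R animals differed from WT by unlike amounts at the 2 ages. Of 10 microglial genes 9 were higher in G34R, 6 in G34V and 0 in G34W, and their summed level was 404 to 453 CPM in WT at 10 weeks, 718 to 822 in G34R, 518 to 648 in G34V and 456 to 517 in G34W. Of 10 genes of mature oligodendrocytes 0 were lower in G34R, 4 in G34V and 2 in G34W, and their summed level was 4544 to 5951 CPM in WT, 3422 to 4411 in G34R, 2845 to 3711 in G34V and 3069 to 4695 in G34W. No gene of these lists was at 0 counts throughout a group, and their part in the Lamp5 result was not tested.

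**Figure D4:**
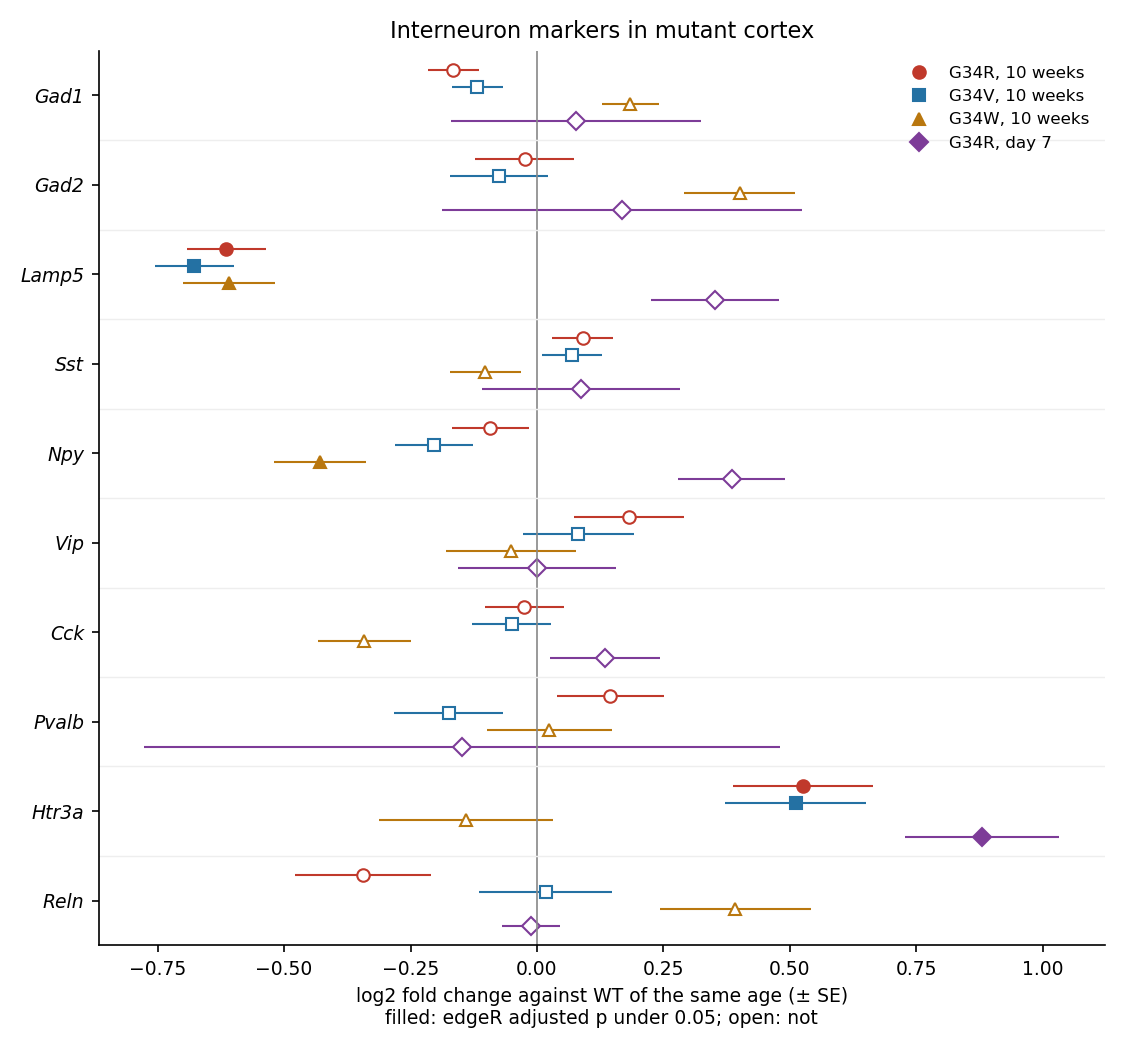
Log2 fold change of each marker against WT of the same age, with bars of 1 SE, in G34R, G34V and G34W at 10 weeks and in G34R at day 7; filled symbols are past an edgeR adjusted p of 0.05. Lamp5 is filled at the left in the 3 groups at 10 weeks and open at 0.35 at day 7, and Htr3a is filled at 0.53, 0.51 and 0.88.

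Across the 10 markers, 1 was higher and 1 lower in G34R at 10 weeks, where 5.61% of all genes were called (2.95% higher, 2.66% lower). In G34V 1 was higher and 1 lower (4.25% of all genes, 1.57% higher and 2.68% lower), in G34W 0 were higher and 2 lower (1.61%, 0.564% and 1.05%), and in G34R at day 7 1 was higher and 0 lower (0.308%, 0.112% and 0.196%). Between the mutants 0 markers were called for G34R against G34V (0.23% of all genes) and for G34V against G34W (0.15%), and 0 were higher and 2 lower for G34R against G34W (1.88%, 0.945% and 0.935%). The animals' ranges did not overlap with WT for 3 markers in G34R, 1 higher and 2 lower (12.2% of all genes, 6.16% and 6.06%), and for 1 in G34V, which was lower (10.2%, 4.32% higher and 5.9% lower). They did not overlap for 5 in G34W, 2 higher and 3 lower (16.4%, 7.54% and 8.86%), and for 1 at day 7, which was higher (5.2%, 2.28% and 2.91%). DESeq2 called 3 markers in G34R at 10 weeks (7.81% of all genes), 5 in G34W (4.24%), 5 for G34R against G34W (5.23%), 2 for G34V against G34W (1.42%), 2 at day 7 (1.02%) and 2 for the difference between the ages (2.03%). The median over the markers was -0.02 in G34R, -0.06 in G34V, -0.08 in G34W and 0.11 at day 7. Most subclass markers thus stayed under the threshold at both ages.

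The genes of GABA synthesis were not called against WT. Gad1 was at 288 to 319 CPM in WT at 10 weeks (median 302), at 262, 279 and 270 CPM in G34R, at 271, 293 and 272 CPM in G34V and at 344 and 345 CPM in G34W. Every G34R animal lay below and both G34W animals lay above all WT animals, by small amounts: -0.17 in G34R (SE 0.0498, edgeR adjusted p = 0.0639), -0.12 in G34V (adjusted p = 0.239) and 0.18 in G34W (SE 0.0566, adjusted p = 0.111). DESeq2, which called 7.81% of all genes in G34R and 4.24% in G34W, called Gad1 in G34R (adjusted p = 0.00934) and in G34W (0.0186). Gad2 was at 113 to 163 CPM in WT, 129 to 131 in G34R, 109 to 134 in G34V and 164 and 184 in G34W, with 0.40 in G34W (SE 0.110, edgeR adjusted p = 0.0831). G34R and G34W differed directly in Gad1 (-0.35, SE 0.0635, edgeR adjusted p = 0.0103), a call lost with the number runs as a block (adjusted p = 0.241), the library sets as a block (0.109) and the compared groups alone (0.0668). As G34R and G34W shared no number run, genotype and run cannot be told apart in this difference.

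Striatal tissue also expresses Gad1 and Gad2, and its markers were read beside them. The summed level of 14 genes of striatal projection neurons was 664 to 1276 CPM in WT at 10 weeks, 798 to 1014 in G34R, 779 to 950 in G34V and 1192 to 1327 in G34W. The receptor gene Adora2a, which marks striatal neurons of the indirect pathway, was at 47.2 and 38.5 CPM in G34W and at 15.3 to 49.8 CPM in WT. Of the 2 G34W animals 1 lay within and 1 lay above the WT range of the list's sum, both were above it for Gad1 and Gad2, and the part of the striatal genes in the Gad1 and Gad2 values was not tested. The summed level of 8 choroid plexus genes was 15.6 CPM in 1 G34W animal, below the WT range of 154 to 955 CPM, and 207 CPM in the other, within it, and 0 of the 8 were called in G34W. Of the 8 genes for making, packaging, taking up and breaking down GABA, 0 were called in G34R, G34V and at day 7. In G34W 1 was called: Abat, the GABA transaminase that breaks GABA down, at 344 ± 62.3 CPM (n = 2) against 248 ± 12.4 (n = 6; 0.46, SE 0.0761, edgeR adjusted p = 0.00625). Abat was 0.26 without G34W replicate 1, where its call was lost, and 0.63 without replicate 2, and the call was lost under 3 of 21 alternatives in all. The vesicular transporter gene Slc32a1 had 0.02, -0.13 and 0.11 in G34R, G34V and G34W. Of 17 GABA A receptor and inhibitory postsynaptic genes 0 were called in G34R, G34V and at day 7, and 1 was lower in G34W, the receptor subunit gene Gabra5 (-0.39, SE 0.0917). Gabra5 was -0.27 without G34W replicate 1 (adjusted p = 0.314) and -0.55 without replicate 2, and its call was lost under 8 of 21 alternatives.

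At day 7 the GABA genes varied more between animals than between genotypes. Gad1 was at 70.4, 69.1, 101 and 72.3 CPM in WT and at 70.0, 118, 66.5 and 75.2 CPM in G34R. Gad2 was at 54.2, 47.2, 77.5 and 52.5 CPM in WT and at 49.4, 106, 44.5 and 61.0 CPM in G34R. In each genotype 1 animal was high, WT replicate 3 and G34R replicate 2. The same animals had the highest Adora2a, 15.7 and 23.0 CPM against 2.87 to 15.2 CPM in the other 6, and the highest Penk, the enkephalin precursor gene, at 36.9 and 59.3 CPM. Without both, Gad1 and Gad2 differed by 0.001 (SE 0.0604) and -0.001 (SE 0.134) between the genotypes, against 0.08 (SE 0.247) and 0.17 (SE 0.355) with all 8 animals. As these animals were also the highest in Gad1 and Gad2, a smaller spread without them was fixed in advance. G34R replicate 4 had 15.2 CPM of Adora2a and 75.2 CPM of Gad1. The part of the striatal genes was not tested.

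**Figure D5:**
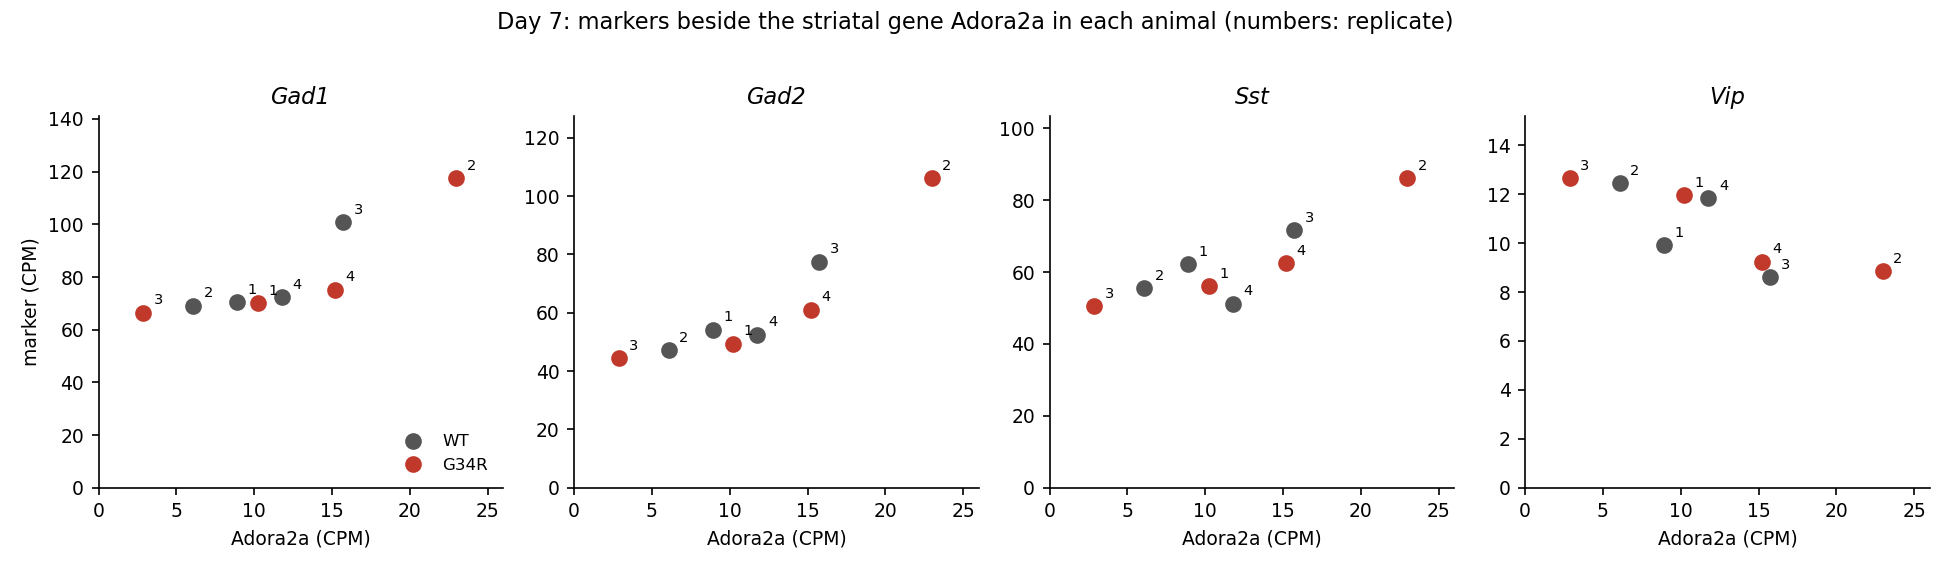
Levels of Gad1, Gad2, Sst and Vip (vertical axes, CPM) against the striatal gene Adora2a (horizontal axis, CPM) in the 4 WT and 4 G34R animals at day 7, with replicate numbers. G34R replicate 2 (23.0 CPM of Adora2a) and WT replicate 3 (15.7) stand highest for Gad1, Gad2 and Sst and lowest for Vip.

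Sst, the marker of the peptidergic cells that contact dendrites, did not pass in any comparison of genotypes. It was at 82.9 to 95.1 CPM in WT at 10 weeks (median 88.6), 88.0 to 98.7 in G34R, 88.3 to 99.4 in G34V and 81.2 and 84.2 in G34W, and all groups overlapped WT. The log2 fold changes were 0.09 (SE 0.0598), 0.07 (SE 0.0599) and -0.10 (SE 0.0701), and at day 7 0.09 (SE 0.196). At day 7 it was highest in the 2 animals with the most Adora2a, at 71.6 CPM in WT replicate 3 and 86.1 CPM in G34R replicate 2, against 50.5 to 62.6 CPM in the others.

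Of 14 genes listed for the somatostatin subclass, 1 was higher and 3 lower in G34R, 1 higher and 1 lower in G34V, 0 higher and 1 lower in G34W, with medians of -0.11, -0.11 and -0.001. Of all genes, 5.61%, 4.25% and 1.61% were called in these comparisons, and the counts in G34V and G34W are 2 genes and 1 gene. The gene lower in all 3 was Crhbp, which encodes the binding protein of corticotropin-releasing hormone. It was at 18.4 ± 2.86 CPM in WT, 11.8 ± 1.67 in G34R, 12.7 ± 1.29 in G34V and 11.1 ± 1.34 in G34W, and the ranges of the mutant groups (9.92 to 13.6 CPM) lay below that of WT (15.6 to 23.2 CPM). Its log2 fold changes were -0.64 in G34R (SE 0.127, edgeR adjusted p = 0.00481), -0.54 in G34V (SE 0.127, adjusted p = 0.0208) and -0.73 in G34W (SE 0.152, adjusted p = 0.0235). Crhbp in G34R was called under all 22 alternatives, in G34V under 16 of 22 and in G34W under 15 of 21. At day 7 it was at 4.65 ± 0.831 CPM in WT and 5.26 ± 0.716 in G34R, and its difference between the ages was -0.83 (SE 0.197, adjusted p = 0.0351), lost under 12 of 27 alternatives. In G34R cortistatin (Cort, -0.70, SE 0.198) and Cbln4 (-0.46, SE 0.131) were also lower and the calcium-binding protein gene Calb1 (0.26, SE 0.0725) was higher, all with an edgeR adjusted p between 0.0438 and 0.0479 and lost under 9 to 13 of 22 alternatives. Myh8 was the higher gene in G34V (1.42, SE 0.276).

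Npy, the peptide of neurogliaform cells and of part of the somatostatin cells, was lower in G34W. The G34W animals had 31.4 and 32.9 CPM and the WT animals 37.4 to 49.6 CPM (median 43.4), and the difference was -0.43 (log2; SE 0.091; edgeR adjusted p = 0.0239). G34R (38.6, 39.9 and 43.2 CPM) and G34V (38.4, 35.8 and 38.4 CPM) overlapped WT, at -0.09 (SE 0.0761) and -0.20 (SE 0.0766), and did not pass. The call in G34W was lost under 8 of 21 alternatives, with adjusted p from 0.0501 to 0.251, among them each G34W animal left out. At day 7 Npy was at 21.5 to 26.5 CPM in WT and 26.1 to 34.01 CPM in G34R (0.38, SE 0.106, edgeR adjusted p = 0.295). Its difference between the ages, -0.47 (SE 0.125), had an adjusted p of 0.0746. Of 14 genes of peptide receptors only Npy5r, a receptor for neuropeptide Y, was called against WT: it was lower in G34R, at 2.58 ± 0.335 CPM against 4.75 ± 0.681 (-0.89, SE 0.171, edgeR adjusted p = 0.00354). In G34V (3.14 ± 0.143 CPM) and G34W (3.14 ± 1.19 CPM) Npy5r did not pass.

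Cck, the most abundant of the peptides here and one that excitatory neurons also make, was at 162 to 216 CPM in WT at 10 weeks (median 180), 170 to 190 in G34R and 171 to 193 in G34V. In G34W it was at 144 and 149 CPM, below every WT animal, with -0.34 (SE 0.0921, edgeR adjusted p = 0.0714). DESeq2 called this difference (adjusted p = 0.0205). At day 7 Cck was at 63.1 to 76.1 CPM in WT and 59.2 to 87.3 CPM in G34R and did not pass (0.13, SE 0.108).

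Vip, the peptide of cells that inhibit other interneurons, did not pass in any genotype comparison. It was at 24.4 to 36.8 CPM in WT, 31.6 to 39.0 in G34R, 28.8 to 34.7 in G34V and 27.4 and 31.6 in G34W, with 0.18 (SE 0.108), 0.08 (SE 0.109) and -0.05 (SE 0.128). At day 7 the means were equal at 10.7 CPM. Of 12 genes of its subclass, which include Htr3a, 1 was higher and 1 lower in G34R, 1 higher and 2 lower in G34V, 0 higher and 1 lower in G34W. Over all genes 5.61%, 4.25% and 1.61% were called in these comparisons, and the higher gene in G34R and G34V was Htr3a itself. The gene lower in all 3 was Igfbp6, which encodes an insulin-like growth factor binding protein: 29.5 ± 4.7 CPM in WT, 19.3 ± 2.17 in G34R, 15.2 ± 0.0325 in G34V and 19.8 ± 2.66 in G34W. Its log2 fold changes were -0.61 (SE 0.117), -0.96 (SE 0.119) and -0.58 (SE 0.137), called under all 22 alternatives in G34R and in G34V and under 10 of 21 in G34W. Rspo1 was the other lower gene in G34V (-0.79, SE 0.171).

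Pvalb, the calcium-binding protein of fast-spiking basket and chandelier cells, did not pass in any genotype comparison. It was at 32.1 to 48.3 CPM in WT at 10 weeks (median 39.9), 39.6 to 47.2 in G34R, 32.8 to 36.7 in G34V and 46.0 and 35.2 in G34W. The differences from WT were 0.15 (SE 0.106), -0.17 (SE 0.108) and 0.02 (SE 0.124), and the 3 groups overlapped WT. Of the 14 genes of its subclass 1 was higher in G34R, the synaptic adhesion gene Il1rapl2 (0.44, SE 0.107), and 0 were called in G34V and G34W. The perineuronal net, the matrix that surrounds many Pvalb cells, held a lower gene in all 3 groups, Hapln4. It was at 74.7 ± 16.1 CPM in WT, 46.0 ± 3.0 in G34R, 30.9 ± 6.36 in G34V and 33.8 ± 3.48 in G34W, and no mutant animal (25.0 to 48.0 CPM) reached the lowest WT animal (59.7 CPM). Its log2 fold changes were -0.70 in G34R (SE 0.175, edgeR adjusted p = 0.0365), -1.28 in G34V (SE 0.181, adjusted p = 0.00159) and -1.15 in G34W (SE 0.213, adjusted p = 0.0235). The call held under all 22 alternatives in G34V and was lost under 10 of 22 in G34R and 7 of 21 in G34W. The core proteoglycan gene Acan did not pass (-0.22, -0.20 and 0.28), and Bcan was lower in G34V (-0.22, SE 0.0513).

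Htr3a, the channel subunit that marks interneurons of the caudal ganglionic eminence, was higher in G34R at both ages and in G34V. At day 7 the WT animals had 2.59, 2.24, 3.09 and 2.47 CPM and the G34R animals 4.91, 5.29, 3.84 and 4.97 CPM, without overlap. The log2 fold change was 0.88 (SE 0.153, edgeR adjusted p = 0.0475). At 10 weeks the WT animals had 4.54 to 6.50 CPM (median 5.42), the G34R animals 7.19, 7.28 and 8.85 CPM and the G34V animals 9.18, 6.41 and 7.47 CPM. All G34R animals lay above WT, and G34V overlapped it by 1 animal. The log2 fold changes were 0.53 in G34R (SE 0.139, edgeR adjusted p = 0.0327) and 0.51 in G34V (SE 0.14, adjusted p = 0.0466). G34W, at 4.29 and 5.44 CPM, lay within or below WT (-0.14, SE 0.171). The direct differences of G34R and G34V from G34W, 0.67 (SE 0.191) and 0.65 (SE 0.191), did not pass (edgeR adjusted p = 0.0793 and 0.184).

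These calls for Htr3a lay close to the threshold. The call in G34R at 10 weeks was lost with the number runs as a block (0.53, edgeR adjusted p = 0.116) and when 6 of the 9 animals were left out in turn (WT replicates 1, 2 and 3 and G34R replicates 1, 2 and 3; adjusted p up to 0.196). The call in G34V was lost under 12 of 22 alternatives, 7 of them an animal left out. At day 7 it was lost when WT replicate 1, 2 or 4 or G34R replicate 1, 2 or 4 was left out (adjusted p 0.134 to 0.216), with the estimate between 0.79 and 0.88, and with a filter at 1 CPM (adjusted p = 0.0544). The direction was the same in all 60 alternatives for G34R and G34V against WT at 10 weeks and G34R at day 7. At 10 weeks 9 of 10 microglial genes were higher in G34R, 6 in G34V and 0 in G34W. Their summed level was 404 to 453 CPM in WT, 718 to 822 in G34R, 518 to 648 in G34V and 456 and 517 in G34W. At day 7, 3 of the 10 were also higher in G34R, where 0.112% of all genes were called higher. These were Cx3cr1, P2ry12 and Itgam, with calls lost under 7, 9 and 9 of 16 alternatives. The list's summed level at day 7 was 166 to 190 CPM in WT and 208 to 239 CPM in G34R. The part of the microglial genes in the Htr3a results at either age was not tested.

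Reln was not called in any mutant group against WT. It was at 118 to 195 CPM in WT at 10 weeks (median 153), 113, 124 and 126 in G34R, 143 to 180 in G34V and 181 and 223 in G34W, so that all 3 groups overlapped WT. The log2 fold changes were -0.34 (SE 0.134, edgeR adjusted p = 0.184), 0.02 (SE 0.132) and 0.39 (SE 0.149, adjusted p = 0.204). G34R and G34W differed directly (-0.74, SE 0.168, edgeR adjusted p = 0.0445), a call lost under 11 of 17 alternatives, with -0.25 and an adjusted p of 0.794 when the number runs were a block. Here too, genotype and run cannot be told apart, since G34R and G34W shared no run. The 2 libraries of WT replicate 3, both from 1 animal, had 121 and 171 CPM of Reln, while the mean of G34R was 121 ± 7.09 and that of WT 154 ± 26.2 CPM. At day 7 Reln was at 423 to 470 CPM in WT and 395 to 460 CPM in G34R (-0.01, SE 0.057). Of the 9 genes of reelin signalling none was called in any mutant comparison at either age. The receptor gene Lrp8 had -0.04, 0.08 and -0.01 in G34R, G34V and G34W.

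The factors that set up interneurons in the embryo showed few calls. Of 20 listed, 1 was higher and 1 lower in G34R and 0 were called in G34V, G34W and at day 7. The lower gene was Dlx1 (19.8 ± 1.97 against 24.8 ± 2.17 CPM; -0.33, SE 0.0882, edgeR adjusted p = 0.0344, lost under 9 of 22 alternatives). Lhx6 did not pass, with 0.16, 0.18 and 0.09 in the 3 groups.

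Ratios between markers of the same animal do not depend on the scaling between libraries. A set of 5 ratios was compared with an exact two-sided permutation test over animals, 19 tests in all, since Pvalb to Sst could not be formed at day 7 with a count of 0. Lamp5 to the sum of Gad1 and Gad2 had a geometric mean of 0.255 in WT at 10 weeks, 0.182 in G34R, 0.172 in G34V and 0.141 in G34W. The exact permutation p was 0.0238, 0.0119 and 0.0357 (the last 2 the smallest that 3 against 6 and 2 against 6 animals allow), each 0.136 after adjustment over the 19 tests. Npy to Sst was 0.486 in WT, 0.430 in G34R, 0.404 in G34V and 0.389 in G34W, with exact permutation p of 0.107, 0.0238 and 0.0357 and adjusted p of 0.226, 0.136 and 0.136. Gad1 to Gad2 was 2.31 in WT and 2.08, 2.24 and 1.98 in the mutants, Pvalb to Sst 0.445 in WT and 0.465, 0.379 and 0.487, and Vip to Sst 0.340 in WT and 0.365, 0.346 and 0.356. At day 7 Lamp5 to the sum of Gad1 and Gad2 was 0.0779 in G34R and 0.0657 in WT (0.25 on the log2 scale, SE 0.234, exact permutation p = 0.4, adjusted p = 0.627). Npy to Sst at day 7 was 0.477 in G34R and 0.387 in WT (0.30, SE 0.110, exact permutation p = 0.0857, adjusted p = 0.226), where 4 against 4 animals allow no p below 0.0286. Both day-7 estimates were above WT, while those at 10 weeks were below it, and the difference between the ages in these ratios was not tested. None of the 19 passed after adjustment. With so few animals, the smallest p possible left little room to pass over 19 tests. The lack of a call therefore says little about the ratios themselves.

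The genes whose level followed each marker most closely over the 22 animals, each gene centred on its mean at its age, were listed as a description (Pearson r over log2 CPM among 16987 genes). The animals share genotype and library set, which enter these values. Gad1 and Gad2 followed each other (r = 0.915) and both ran opposite to Vip (-0.66 and -0.74). Gad1 was followed next by Fign (0.885) and Col25a1 (0.882), and Gad2 by Tshz1 (0.912) and Irs4 (0.895). Lamp5 was followed by the collagen gene Col11a2 (0.849) and the desaturase gene Fads6 (0.847), and among the other markers most by Npy (0.631). For Htr3a they were Cps1 (0.854), the cyclooxygenase gene Ptgs1 (0.848) and the reactive astrocyte gene Serpina3n (0.834). For Reln they were Amot (0.908), Huwe1 (0.870) and Macf1 (0.868), and for Sst Tyro3 (0.862), Psap (0.861) and Car10 (0.851). Npy was followed by Eepd1 (0.805), Syt13 (0.777) and Sema4a (0.773), Vip by Klf6 (0.840), Akr7a5 (0.771) and Id2 (0.748), Pvalb by Irgm1 (0.842), Rpl7a-ps11 (0.753) and Gnpda1 (0.741), and Cck by Nrep (0.743), Gm16124 (0.735) and Prpf38a (0.729). When centred on the group instead, Lamp5 was followed by Rgs4 (0.812) and Rpap2 (0.779).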

How the data were processed

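RNA of mouse cortex was measured in 23 libraries of 22 animals. The authors deposited unnormalised counts per gene. Per the submitters' processing notes the tools were featureCounts 1.4.4, bedtools 2.27.1, STAR 2.3.0e and Trimmomatic 0.32, with the mm10 assembly. The roles of these tools, the annotation and the strand setting remain not given in the sources used here. Reads of overlapping or antisense genes can therefore not be told apart. Replicates were separate animals, and 2 libraries of WT replicate 3 at 10 weeks were summed. They were kept apart in the fits by library set and in those with only 1 of them.

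Counts were tested with edgeR 4.0.16 (TMM scaling, filterByExpr, robust quasi-likelihood fit, Benjamini-Hochberg adjustment over all genes, threshold 0.05) in R 4.3.3. The 10-week comparisons used 14 animals and 21274 genes (10 residual degrees of freedom), day 7 used 8 animals and 20451 genes with sex as a covariate (5), and age and its interaction used 22 animals and 22417 genes (16). The SE is the size of the log2 fold change divided by the square root of F. CPM are on 1 TMM scale over 22 animals. Sex-specific genes (175) were left out of the tests. Transcript lengths and coordinates are those of GENCODE M21 (GRCm38), which held 37607 of the 39017 genes. The scripts were tested on simulated data.

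Named besides the 10 markers were H3f3a, up to 3 called genes with the smallest adjusted p of each of 23 lists, called receptor genes and the 3 most similar genes of each marker. Ndnf, Kit, Slc32a1, Acan, Lrp8, Lhx6, Adora2a and Penk, and for the age comparison the genes of the lists, were named outside this rule after their values were seen. Some genes that the rule names are not reported here. The markers and lists were chosen with earlier results of these data known. Alternatives were DESeq2 1.42.0, limma-voom 3.58.1, other scaling and filters, covariates, subsets of samples and each animal left out. A pair of library sets split by mitochondrial share, and day 7 without the 2 animals highest in Adora2a, were added after seeing the data.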

Additional observations from a re-analysis of the deposited data

Results flagged for a closer look

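The levels of the 10 markers in the groups of 4 to 6 animals were checked for a single animal apart from the rest, 30 combinations of gene and group, of which chance flags about 1 in 20. Of these 4 were flagged, all at day 7. Gad1 stood at 101 CPM in WT replicate 3, with the other WT animals at 69.1 to 72.3 CPM, and at 118 CPM in G34R replicate 2, with the others at 66.5 to 75.2 CPM. These are also the 2 animals highest in the striatal gene Adora2a, whose part was not tested. Lamp5 stood at 8.20 CPM in G34R replicate 1, below 11.8 to 12.4 CPM in the other G34R animals, and Reln at 395 CPM in G34R replicate 3, below 452 to 460 CPM.

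The effect of G34R on Lamp5 differed between 10 weeks and day 7 by -0.96 on the log2 scale (edgeR adjusted p = 0.00206).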

How the results depend on the processing

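Over the 10 markers and 9 comparisons, 1819 alternative values were computed. Of these 50 lost a call, 20 gained one and 26 changed sign by more than the SE of the main fit. All 26 were among values that were not called. The other 1723 kept their side of the threshold. Some of them also changed sign, by less than this SE and among values that were not called. Examples are Cck in G34R at 10 weeks (-0.16 to 0.036) and Gad1 in G34R at day 7 (-0.16 to 0.26). The sign changes named below are among the 26. The lower Lamp5 level in G34R, in G34V and in the difference between ages was called in all 22, 22 and 27 alternatives, and in G34W in 20 of 21.

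With DESeq2 the number of markers called was 3 for G34R, 5 for G34W, 5 for G34R against G34W, 2 for G34V against G34W, 2 at day 7 and 2 for the interaction of age and genotype, against 2, 2, 2, 0, 1 and 1 with edgeR. Limma-voom called 1 for G34W and 1 for G34R against G34W. The filter at 1 CPM called 1 for G34V against G34W and 0 at day 7, and no filter called 1 for G34R against G34W. With only the groups compared 1 was called for G34V and 1 for G34W. With the sex label as a covariate 1 was called for G34W and 1 for G34R against G34W. The second library of WT replicate 3 alone left 1 for G34V, and the first alone left 1 for G34R against G34W.

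No paired analysis was possible because the labels give animal numbers and no pairs. With animals of adjacent label numbers as a block instead, 1 marker was called for G34R, 1 for G34V, 0 for G34W and 0 for G34R against G34W. The signs then changed for Gad2 (0.077) and Pvalb (-0.022) in G34R, for Gad1 (0.025), Sst (-0.12), Vip (-0.20), Lamp5 (-0.15) and Cck (-0.13) in G34R against G34V, and for Pvalb (-0.20) in G34R against G34W. Over all genes this block left 753 of 1193 calls for G34R, 341 of 905 for G34V and 15 of 343 for G34W. No run held animals of different mutant genotypes, so this block set each mutant group only against the WT animals of its own runs. The cause of the lost calls was not tested.

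With the mitochondrial library sets as a block 1 marker was called for G34V, 1 for G34W, 0 for G34R against G34W and 1 for G34V against G34W. In this fit the 2 libraries of WT replicate 3 were not summed, and this 1 animal counted as 2 samples. Signs changed for Reln in G34V (-0.15), for Sst (-0.11), Vip (-0.036), Lamp5 (-0.13), Npy (-0.071), Cck (-0.17) and Reln (0.10) in G34R against G34V, and for Pvalb in G34R against G34W (-0.10). In the high set alone 1 marker was called for G34V and 1 for G34W, and Reln in G34V was -0.15. The sex covariate turned Pvalb in G34R against G34W to -0.059. Without the 2 animals highest in Adora2a 0 markers were called at day 7, and Pvalb in the difference between ages was -0.39, as it was -0.31 with limma-voom.

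Leaving out 1 animal at a time gave 1 to 2 markers called for G34R, 1 to 2 for G34V, 1 to 4 for G34W (4 without WT replicate 2), 1 for G34R against G34W, 0 to 1 at day 7, 1 to 2 for the difference between ages and 10 for age. Where 1 G34W animal remained, its spread is taken from the other groups. Pvalb then ranged from -0.18 to 0.20 in G34W, from -0.058 to 0.32 in G34R against G34W, from -0.47 to 0.55 at day 7 and from -0.30 to 1.09 in the difference between ages. Gad2 ranged from -0.19 to 0.38 at day 7 and from -0.37 to 0.14 in the difference. Over all genes, 343 calls for G34W became 901 with DESeq2, 190 with limma-voom, 630 with the sex covariate, 145 with only the groups compared, 126 with the library sets as a block, 91 in the high set, 68 without G34W replicate 1 and 590 without replicate 2. The 1193 calls for G34R and 905 for G34V fell to 766 or fewer without each of the G34R animals and to 497 and 513 without G34V replicate 1 or 2, and G34V had 519 in the high set. Between mutants, the 49, 400 and 32 calls (G34R against G34V, G34R against G34W, G34V against G34W) were 3, 6 and 4 with the number block, 11, 35 and 76 with the set block and 265, 1113 and 302 with DESeq2. The interaction had 261 calls, 454 with DESeq2 and 166 without the 2 animals. The 63 calls at day 7 became 209 with DESeq2, 158 without a filter, 7 without the 2 animals highest in Adora2a and 5 to 39 in 8 leave-one-out fits.

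Depth limits Pvalb at day 7, with 0 to 44 counts per animal.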

Other observations

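A gene of the hippocampal list and a gene of the thalamic list, both outside the markers, were called in the same direction in all 3 mutant groups at 10 weeks. Rgs16, a regulator of G protein signalling, was lower at -0.79 in G34R (SE 0.196), -1.12 in G34V (SE 0.202) and -1.35 in G34W (SE 0.248). Itpka, an inositol trisphosphate kinase gene of dendritic spines, was lower at -0.32 (SE 0.0563), -0.24 (SE 0.0561) and -0.33 (SE 0.0656). Cacna2d2, a calcium channel subunit gene listed for Cajal-Retzius cells, was higher in G34W (0.70, SE 0.111, edgeR adjusted p = 0.00551).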
